A study of Mus musculus with 6 samples.

Results

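The 10 genes described here encode dual-specificity MAP kinase phosphatases, and they were taken by symbol (Dusp1, Dusp2, Dusp3, Dusp4, Dusp5, Dusp6, Dusp7, Dusp8, Dusp10 and Dusp16) from the 49315 genes of a raw count table. RNA was sequenced from RAW264.7, a macrophage-like mouse cell line that the labels give as wild type. The 3 SKI-II libraries came from cells kept for 24 h with SKI-II at 4 μg/mL, a compound first described as a sphingosine kinase inhibitor, and the 3 DMSO libraries from cells given an equivalent amount of the vehicle. The methods state in general that experiments were repeated independently, and speak of biological replicates for the qPCR protocol whose treatment and extraction the RNA-seq followed. Neither they nor the labels say so of these libraries in particular, so the p-values measure only the spread between these samples, all from 1 cell line, which may be technical. The comparison asks which genes of the macrophage change their transcript level with the compound.

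MAP kinases (ERK, JNK and p38) are switched on when a MAP2K phosphorylates a threonine and a tyrosine in their activation loop. Dual-specificity phosphatases remove both phosphates, and most of them are themselves transcribed in response to MAP kinase signalling, which makes them feedback brakes. In macrophages DUSP1 is best known as the phosphatase that limits p38 and JNK activity, and with it cytokine production, after stimulation through Toll-like receptors. The family differs in location and substrate. DUSP1, DUSP2, DUSP4 and DUSP5 are inducible nuclear enzymes, DUSP6 and DUSP7 are cytoplasmic and act on ERK, DUSP8, DUSP10 and DUSP16 act mainly on JNK and p38, and DUSP3 is a small enzyme without the kinase-binding domain of the others.

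The sequence in front of each gene is shown for the members with the largest changes, since promoters of this family carry well-known elements. RefSeq promoter windows (GRCm38.p6) matched 9 of the 10 genes, all but Dusp4. The 250 bases before each RefSeq start were searched on both strands, and bases that GENCODE M21 annotates as exon of the same gene were not printed. Capitals mark the cAMP response element TGACGTCA, its half-site TGACG (which the full element contains on each strand), the antioxidant response element core TGACNNNGC and the CArG box bound by serum response factor.
Dusp1 (chr17:26508520-26508722, minus strand): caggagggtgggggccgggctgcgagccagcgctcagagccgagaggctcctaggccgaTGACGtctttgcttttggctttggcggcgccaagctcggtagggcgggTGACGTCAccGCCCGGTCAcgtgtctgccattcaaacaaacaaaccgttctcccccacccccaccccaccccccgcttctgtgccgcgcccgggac
Dusp5 (chr19:53528895-53529108, plus strand): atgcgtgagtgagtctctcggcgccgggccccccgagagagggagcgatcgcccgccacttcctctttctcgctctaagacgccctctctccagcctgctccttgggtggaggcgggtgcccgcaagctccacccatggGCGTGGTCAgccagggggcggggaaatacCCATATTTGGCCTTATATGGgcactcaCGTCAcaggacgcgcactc
Dusp8 (chr7:142095285-142095534, minus strand): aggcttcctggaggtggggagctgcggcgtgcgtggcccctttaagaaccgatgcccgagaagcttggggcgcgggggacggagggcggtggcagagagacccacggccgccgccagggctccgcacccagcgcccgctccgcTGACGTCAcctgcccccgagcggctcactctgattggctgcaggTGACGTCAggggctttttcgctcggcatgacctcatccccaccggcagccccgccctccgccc
Dusp6 (chr10:99262981-99263230, plus strand): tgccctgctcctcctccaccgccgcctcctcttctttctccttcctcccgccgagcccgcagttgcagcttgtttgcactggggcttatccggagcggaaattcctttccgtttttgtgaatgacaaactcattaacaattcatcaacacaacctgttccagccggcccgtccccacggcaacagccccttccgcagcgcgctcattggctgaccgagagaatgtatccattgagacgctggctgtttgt

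Dusp1 held 1 full cAMP response element, whose first base lay 143 bases before the start, a further half-site at 191 and an antioxidant response element core at 133. Dusp8 held 2 full cAMP response elements, at 107 and 63 bases before the start. Dusp5 held 2 adjoining CArG boxes, at 82 and 72 bases, with an antioxidant response element core at 111 and a half-site of the cAMP response element at 55. Dusp16 held 1 half-site at 70 bases. Dusp2, Dusp3, Dusp6, Dusp7 and Dusp10 matched none of these letters in the window, and none of the 9 genes matched the AP-1 site TGANTCA, the CARE sequence TGATGCAA or the NF-kB site. Among 32851 RefSeq windows of the same length, 1.55% held the full cAMP response element, 17.8% its half-site, 10.2% the antioxidant response element core and 1.47% a CArG box. The shares for the AP-1 site, the CARE sequence and the NF-kB site were 6.75%, 0.791% and 3.90%. These matches describe the letters only, and the motifs were chosen with the expression values known.

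**Figure D1:**
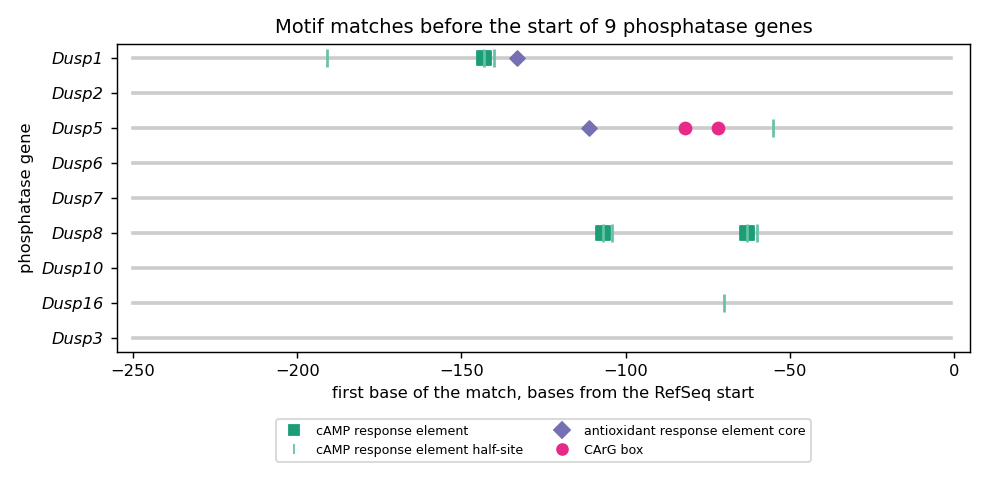
Positions of motif matches in the 250 bases before the RefSeq start of 9 phosphatase genes (horizontal axis, bases from the start to the first base of the match; one row per gene). Dusp1 carries 1 full cAMP response element, Dusp8 carries 2 and Dusp5 carries 2 adjoining CArG boxes, whereas 5 genes carry none of the motifs drawn.

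The libraries held 12495957 to 20050677 counts, of which 6571 to 17235 fell on the 10 phosphatase genes. All 10 passed the filter on low counts and were tested among 12274 genes. Values below are normalized counts, that is, counts scaled for library size with TMM factors to a mean library of 16042438. Adjusted p-values come from the quasi-likelihood test of edgeR, adjusted by Benjamini-Hochberg over all genes tested. Of 10 macrophage markers all were detected, and their summed level lay from 142308.4 to 207327.8 normalized counts in DMSO, and between 91142.8 and 129132.7 in SKI-II. Of these markers 2 were higher (Cd14 and Fcgr1, with log2 fold changes of 1.41 and 2.17) and 3 were lower (Lyz2, Itgam and Adgre1, with -1.26, -0.93 and -0.92), with a median of -0.11. Lyz2, the lysozyme gene, was the most abundant, with means of 109817.7 and 45950.8. Of 24 markers of other cell types, 8 were at 0 in every library, among them Ebf1, Cd3g, Ly6g, Epcam, Krt8, Krt18 and Cdh1, and 20 had at most 10 counts in any library. Their sum lay between 64.1 and 124.8 normalized counts in the DMSO group and between 72.7 and 141.2 in the other. The part of these marker changes in the results on the phosphatases was not tested.

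With SKI-II, 4 of the 10 phosphatase genes rose and 0 fell by edgeR, also 0 at an unadjusted p below 0.05 and 0 by DESeq2 or limma-voom. Dusp1, Dusp5, Dusp6 and Dusp4 were the genes that rose, by 5.77-, 4.83-, 2.5- and 1.91-fold. At an adjusted p below 0.05, 18.4% of all genes tested were higher and 19.7% were lower. With a log2 fold change above 1 as a further condition, 3 members were higher (Dusp1, Dusp5 and Dusp6), against 8.28% of all genes tested, and 0 were lower, against 7.44%. For the 4 genes that rose, the lowest SKI-II library exceeded the highest DMSO library, which held for 24.8% of all genes tested. For 0 members did the groups separate downwards, against 25.5%. Dusp4 and Dusp8 also passed both conditions, making 5 members, in the fits that omitted DMSO replicate 3 and, separately, SKI-II replicate 2. The median log2 fold change of the 10 genes was 0.69, beside 0.00 for all genes tested, and 9 of the 10 had a fitted value above 0. In these bulk libraries, a change in how many cells express a gene and a change in its RNA per cell cannot be told apart.

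**Figure D2:**
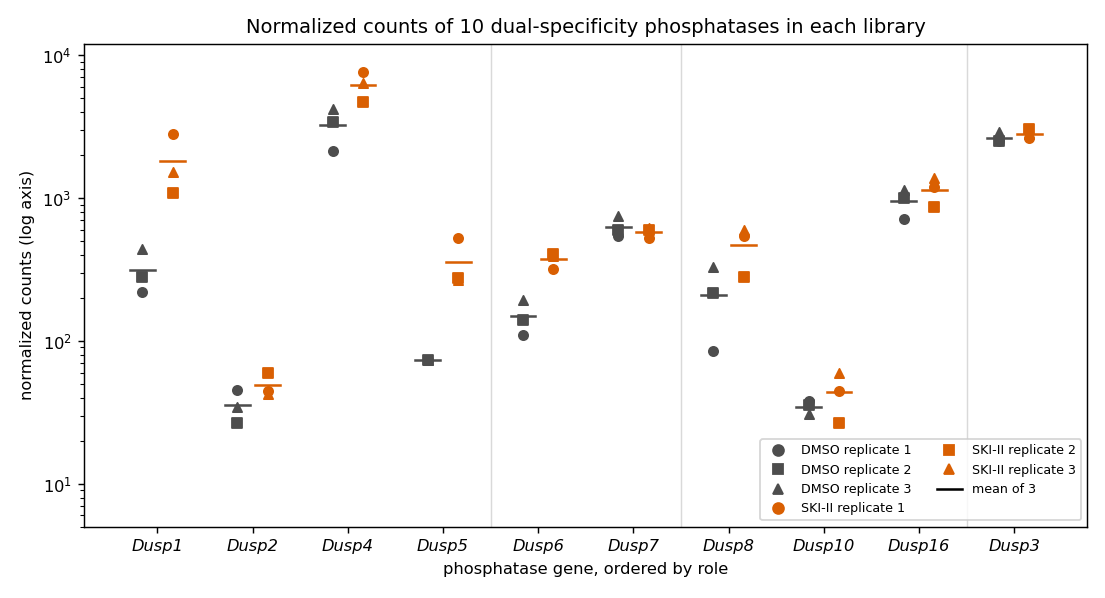
Normalized counts (log axis) of the 10 phosphatase genes in each library, grouped by role, with DMSO in grey and SKI-II in orange, the shape giving the replicate and the line the mean of 3. The groups are apart for Dusp1, Dusp4, Dusp5 and Dusp6 and overlap for the other 6 genes.

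Among the inducible nuclear enzymes, Dusp1 (chromosome 17, 26505590 to 26562128 in the GENCODE M21 annotation of GRCm38, minus strand) was at 219.5, 281.8 and 437.7 normalized counts in DMSO replicates 1, 2 and 3. It was at 2829.8, 1082.1 and 1519.5 in the SKI-II replicates in the same order. The lowest SKI-II library thus exceeded the highest DMSO library, and SKI-II replicate 1 stood above the other two. The log2 fold change was 2.53 (standard error, SE, 0.34, adjusted p = 0.000537), and 170 of the 12274 genes tested (1.39%) had one at least as large. With any 1 library left out it lay between 2.05 and 2.85.

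Dusp5 (chromosome 19, 53529109 to 53542431), an ERK-directed phosphatase of the nucleus, was at 73.8, 73.3 and 73.3 normalized counts in the DMSO libraries. With SKI-II it was at 524.8, 274.8 and 268.0. The DMSO libraries were almost level (73.5 ± 0.312, SD, n = 3), resting on 76, 58 and 74 raw counts, while the SKI-II libraries were spread over 355.9 ± 146.3 (SD, n = 3), with replicate 1 the highest as for Dusp1. The fitted log2 fold change, 2.27 (SE 0.28, adjusted p = 0.000248), was one that 218 genes (1.78%) reached. GENCODE M21 places an antisense gene, AC137853.2, over 547 exon bases of Dusp5. No source used here states whether the counting used strand, so reads of the antisense gene could be among these counts. On the opposite strand, Dusp3 shares 604 exon bases with Gm20659, which had 0 counts in all, Dusp8 shares 66 with Gm32786, which had 2, and Dusp1 shares 11 with Ergic1, which had 20599 over the 6 libraries.

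Dusp4 (chromosome 8, 34807297 to 34819894), which acts on ERK and JNK in the nucleus, had the highest mean count of the family in both groups, although Dusp3 exceeded it in DMSO replicate 1. It was at 2144.6, 3412.8 and 4241.0 normalized counts in DMSO and reached 7651.3, 4704.2 and 6368.7 in SKI-II. The gap between the groups was narrow, from 4241.0 to 4704.2. Its log2 fold change was 0.93 (SE 0.25, adjusted p = 0.0143), and without SKI-II replicate 1 it was 0.76 and the call was lost (adjusted p = 0.0642).

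Dusp2 (chromosome 2, 127336159 to 127338376), an enzyme best known from activated lymphocytes and myeloid cells, was scarce throughout. Its normalized counts were 45.7, 26.5 and 34.7 in DMSO, and 44.8, 59.2 and 42.4 after SKI-II, so the groups overlapped. The fit gave 0.44 on the log2 scale with a 95% interval of -0.27 to 1.15 (adjusted p = 0.301), on raw counts of 21 to 62 per library, and that interval includes a 2-fold increase.

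The cytoplasmic ERK phosphatases differed from each other. Dusp6 (chromosome 10, 99263231 to 99267489), a classical target gene of ERK signalling, was at 110.7, 140.3 and 195.1 normalized counts in DMSO and at 320.0, 404.6 and 392.7 with SKI-II. All SKI-II libraries lay above all DMSO libraries, with a spread of 45.8 (SD, n = 3) around a mean of 372.4. This amounted to a log2 fold change of 1.32 with SE 0.22 (adjusted p = 0.00141). Dusp7 (chromosome 9, 106368632 to 106375724), a close relative of Dusp6, was at 541.0, 602.7 and 754.5 in DMSO and at 528.1, 598.3 and 622.5 in SKI-II. Its groups overlapped in part, with DMSO replicate 3 above every SKI-II library, and the log2 fold change of -0.12 had a 95% interval of -0.46 to 0.23 (adjusted p = 0.587).

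Of the JNK- and p38-directed enzymes, Dusp8 (chromosome 7, 142079490 to 142095843) had the largest SE of the family. It was at 84.5, 217.3 and 327.8 normalized counts with DMSO and at 544.9, 279.6 and 593.9 with SKI-II. SKI-II replicate 2 lay below DMSO replicate 3, so the groups overlapped. Its fitted log2 fold change, 1.17 (SE 0.42), came with an adjusted p of 0.0522, just outside the threshold. The gene was called higher without DMSO replicate 3 (log2 fold change 1.66, adjusted p = 0.0105) and without SKI-II replicate 2 (1.44, adjusted p = 0.0340), by limma-voom (adjusted p = 0.0411), with library size alone as scaling (adjusted p = 0.0461) and with no filter, but not by DESeq2 (adjusted p = 0.133).

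Dusp16 (chromosome 6, 134715468 to 134792625), whose product shuttles between nucleus and cytoplasm, was at 715.9, 994.4 and 1144.7 normalized counts with DMSO and at 1195.0, 871.2 and 1376.9 with SKI-II. SKI-II replicate 2 lay inside the range of the DMSO libraries. The fitted difference of 0.27 on the log2 scale had a 95% interval of -0.19 to 0.73 (adjusted p = 0.333) and lay between 0.09, without DMSO replicate 1, and 0.44 when 1 library was omitted. Dusp10 (chromosome 1, 184013302 to 184075636), which is known to restrain JNK in innate immune cells, had the lowest mean level in both groups, with 28 to 73 raw counts per library. Its normalized counts were 37.9, 35.4 and 30.7 in DMSO and 44.8, 26.7 and 59.5 in SKI-II, with both the lowest and the highest value in SKI-II. For Dusp10 the log2 fold change of 0.34 had a 95% interval of -0.45 to 1.12 (adjusted p = 0.484), and the value was 0.04 without SKI-II replicate 3 and 0.60 without SKI-II replicate 2.

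Dusp3 (chromosome 11, 101971143 to 101987013), the small enzyme also called VHR, gave the tightest estimate. It was at 2528.3, 2518.2 and 2895.3 normalized counts with DMSO and at 2616.1, 3044.8 and 2797.8 with SKI-II. The ranges overlapped over most of their width. The log2 fold change of 0.09 had a 95% interval of -0.17 to 0.36 (adjusted p = 0.583), so that a change of 2-fold in either direction lay outside it, as it also did for Dusp7 and Dusp16.

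**Figure D3:**
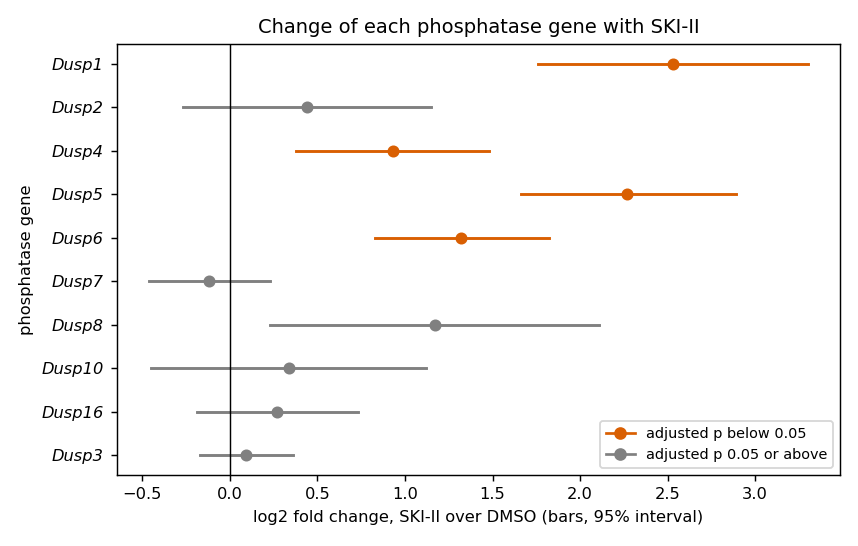
Log2 fold change of each phosphatase gene, SKI-II over DMSO (points), with its 95% interval from edgeR's fit (bars). Orange marks the 4 genes with an adjusted p below 0.05. Dusp1 is the highest at 2.53, and only Dusp7 lies below 0, at -0.12.

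The same libraries were lowest or highest for several members. DMSO replicate 1 held the lowest and DMSO replicate 3 the highest level of Dusp1, Dusp4, Dusp6, Dusp7, Dusp8 and Dusp16. SKI-II replicate 1 held the highest level of Dusp1, Dusp4 and Dusp5, and SKI-II replicate 2 the lowest level of Dusp1, Dusp4, Dusp8, Dusp10 and Dusp16. Members measured in the same libraries share this spread, so their number is not a number of replicates.

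Related members were also compared within each library as the log2 ratio of their normalized counts, in 4 pairs of the same role. The ratio of Dusp6 to Dusp7 was -2.28, -2.10 and -1.95 in DMSO and -0.72, -0.56 and -0.66 with SKI-II. The ratio of Dusp1 to Dusp4 was -3.29, -3.60 and -3.28 in DMSO and -1.43, -2.12 and -2.07 in SKI-II. Both ratios were higher in every SKI-II library than in any DMSO library, with differences of 1.46 and 1.51. The ratio of Dusp8 to Dusp16 went from -2.36 ± 0.65 to -1.33 ± 0.27 (SD, n = 3), and that of Dusp2 to Dusp5 from -1.07 ± 0.38 to -2.80 ± 0.68 (SD, n = 3). Without DMSO replicate 1 the difference for Dusp8 and Dusp16 was 0.67 in place of 1.03. No pair overlapped between the groups. Each had p = 0.1 in a two-sided exact permutation test, also after adjustment over the 4 pairs, which is the smallest p that 3 against 3 libraries allow.

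To set the genes side by side, normalized counts were divided by the exon length of each gene. By this measure, per kilobase of exon, Dusp4 was the most abundant member in every library, at 782.7, 1245.5 and 1547.8 in DMSO and 2792.4, 1716.9 and 2324.4 in SKI-II. In DMSO the order of the mean levels per kilobase was Dusp4, Dusp3 (565.4), Dusp7 (188.5), Dusp16 (122.0), Dusp1 (94.5), Dusp6 (47.5), Dusp8 (43.1), Dusp5 (29.7), Dusp2 (17.8) and Dusp10 (11.4). The libraries of neighbours in this order overlapped for Dusp16 and Dusp1, Dusp6 and Dusp8, and Dusp8 and Dusp5, and not for the others. In SKI-II the order was Dusp4, Dusp3 (602.2), Dusp1 (546.8), Dusp7 (173.7), Dusp16 (147.2), Dusp5 (143.9), Dusp6 (118.9), Dusp8 (97.1), Dusp2 (24.3) and Dusp10 (14.3). There, Dusp3 and Dusp1 overlapped, and so did Dusp7 and Dusp16, Dusp16 and Dusp5, Dusp5 and Dusp6, and Dusp6 and Dusp8, while the remaining neighbours did not. The order depends on the length used. Per kilobase of coding sequence Dusp3 came before Dusp4 in every DMSO library (4202.0 against 2735.5 on average), and Dusp4 before Dusp3 on average in SKI-II (5227.3 against 4475.5).

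The summed level of the 10 genes per kilobase was 1759.8, 2319.5 and 2856.6 in DMSO and 4979.8, 3320.0 and 4139.3 in SKI-II, without overlap (two-sided exact permutation test, p = 0.1, the smallest possible). Dusp4 made up 44.5% to 54.2% of this sum in DMSO and 51.7% to 56.2% in SKI-II. The share of Dusp1 was 3.67% to 4.63% in DMSO and 9.84% to 17.2% in SKI-II, and that of Dusp5 was 1.04% to 1.70% and 2.62% to 4.26%. The shares of Dusp3, Dusp7 and Dusp16 were lower in every SKI-II library, by 10.1, 3.92 and 1.71 percentage points on average. Shares sum to a whole, so a lower share does not show a lower level. Each of the shares of Dusp1, Dusp3, Dusp5, Dusp7 and Dusp16 had p = 0.1 in the exact permutation test and 0.2 after adjustment over 10 shares. With the coding length in place of the exon length, the difference was -15.5 percentage points for Dusp3, -2.33 for Dusp7 and 7.43 for Dusp4. By exon length the Dusp4 difference was 3.86 (exact permutation test, p = 0.5), and 0.706 without DMSO replicate 1. For Dusp16 the difference was -2.55 with the longest transcript and -1.24 by coding length. By coding length the Dusp16 shares overlapped between the groups (exact permutation test, p = 0.2). By coding length Dusp4 made up 25.4% to 34.9% of the sum in DMSO and 34.3% to 42.1% in SKI-II.

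**Figure D4:**
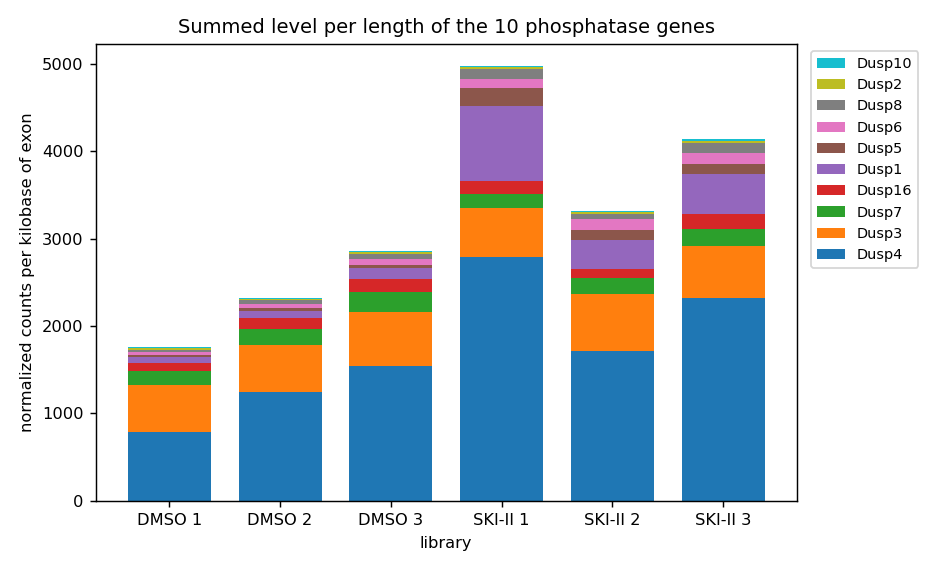
Normalized counts per kilobase of exon of the 10 phosphatase genes, stacked for each library (bars start at 0). The sum lies between 1759.8 and 2856.6 in DMSO and between 3320.0 and 4979.8 in SKI-II, and Dusp4 is the largest segment in all 6 libraries by this length.

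The genes around the phosphatases were described by 10 lists written from general knowledge, with 150 genes in all, of which 121 were tested. Of these, 26 were higher and 22 lower, against the 18.4% and 19.7% of all genes tested, and the median log2 fold change was 0.02. Without SKI-II replicate 2, 14 were lower, beside 1836 of all 12530 genes tested in that fit. Of the MAP kinases themselves, 9 of 14 were tested and 2 were higher (median -0.10). On the log2 scale Mapk7, which encodes ERK5, rose by 0.42 (SE 0.14, adjusted p = 0.0330). Its call was lost without any library but SKI-II replicate 2 (adjusted p up to 0.103). The higher MAP kinase genes numbered 1 without replicate 1 or 3 of DMSO or replicate 3 of SKI-II, and 0 without replicate 2 of DMSO or replicate 1 of SKI-II. Substrates of the phosphatases, named here for their role, were Mapk14 (p38α) with a log2 fold change of 0.01 (adjusted p = 0.943), Mapk8 (JNK1) with -0.22 (adjusted p = 0.258) and Mapk3 (ERK1) with -0.39 (adjusted p = 0.0995). Mapk9 (JNK2), also a substrate, was the other higher gene at 0.41 (adjusted p = 0.0221), with every SKI-II library above every DMSO library. These substrates, called or not, showed small fitted values beside those of Dusp1 and Dusp5.

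Among 7 MAP2K genes, 1 was higher and 2 were lower. Map2k2, an ERK activator, rose from 2383.0 to 3460.0 normalized counts and Map2k6, a p38 activator, fell from 181.0 to 76.9, with log2 fold changes of 0.54 and -1.23 (adjusted p = 0.00617 and 0.00231). Of 22 MAP3K genes tested, 6 were higher and 4 lower. Map3k9 had the largest increase (1.41, adjusted p = 0.0210), a call lost without replicate 2 of DMSO or replicates 1 or 2 of SKI-II (adjusted p up to 0.103), and Map3k1 the largest decrease (-1.17, adjusted p = 0.000135). Each of those 3 omissions left 3 MAP3K genes higher, and 2 were lower in the fits without replicate 2 of either group or without SKI-II replicate 3. For the activation of RAS and the scaffolds of RAF, 5 of 23 genes were higher and 5 lower, led by the scaffold gene Ksr1 at 1.47 (adjusted p = 0.00254) and by Rasal3, a RAS GTPase-activating protein, at -2.57 (adjusted p = 0.00305). The lower genes of this list numbered 3 in the fits without replicate 2 or 3 of DMSO or replicate 2 of SKI-II. Of 7 scaffold genes of the JNK and p38 arms, Tab2 was higher at 0.45 and Tab1 lower at -0.58 (adjusted p = 0.00940 and 0.00552), with 2 higher without DMSO replicate 1 and 2 lower without SKI-II replicate 1.

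Of 9 kinases downstream of MAP kinases, 2 were higher and 3 lower, and 1 was higher without SKI-II replicate 1. Rps6ka2, an ERK-activated S6 kinase, rose by 1.14 (SE 0.11, adjusted p = 6.09e-05), and Mapkapk2, the main effector kinase of p38, fell by 1.06 (SE 0.19, adjusted p = 0.00223), both on the log2 scale. The list of sprouty, spred and ERK output genes had the most increases, with 7 of 16 genes higher and 1 lower and a median of 0.34. The MAP3K genes came next with 6 higher, and both lists had 7 without DMSO replicate 1. Myc, which encodes a growth-promoting transcription factor, was at 7.77, 10.1 and 7.92 normalized counts with DMSO and at 129.8, 80.2 and 36.7 with the compound. Its log2 fold change was 3.24 (SE 0.52, adjusted p = 0.000940). The other 6 higher genes, named after their values were seen, were Fosl1 at 2.40, Ier3 at 2.38, Etv5 at 1.03, Phlda1 at 0.99, Spred3 at 0.92 and Spry2 at 0.78. Spred1, an inhibitor of RAS signalling, was the lower one at -0.50 (adjusted p = 0.0106), and 2 genes were lower without SKI-II replicate 3. Of the 16 genes, 11 had a fitted value above 0. Those not called included Etv4 at -1.02 (adjusted p = 0.0662), Egr1 at 0.00 and Ccnd1 at -0.18, also named after their values were seen.

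A list of further phosphatases, most of them known to act on MAP kinases, had 1 higher and 2 lower genes of 11 tested, and 1 lower without SKI-II replicate 2. Ptpn7 had a log2 fold change of 0.53 (adjusted p = 0.0164), which was not called without DMSO replicate 2 or SKI-II replicate 2 (adjusted p of 0.0884 and 0.0769). Ppm1k, which encodes a mitochondrial phosphatase of amino acid breakdown and not a known MAP kinase phosphatase, had one of -0.96 (adjusted p = 0.0104). Of 8 atypical dual-specificity phosphatases tested, 1 was called, Dusp18, at 0.99 (SE 0.16, adjusted p = 0.00135), with 444.4 ± 51.2 in DMSO and 881.1 ± 154.7 in SKI-II normalized counts (SD, n = 3). In that list 2 genes were higher by DESeq2, with no filter and in each fit without 1 library except the one without SKI-II replicate 2. AU-rich element binding proteins, which control the decay of short-lived messages, had 0 higher and 3 lower genes of 9, with a median of -0.28. Zfp36l1 was the lowest at -1.16 (adjusted p = 0.00540), whereas Zfp36, which encodes tristetraprolin and is named here for its role, had a log2 fold change of 0.10 (adjusted p = 0.646).

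**Figure D5:**
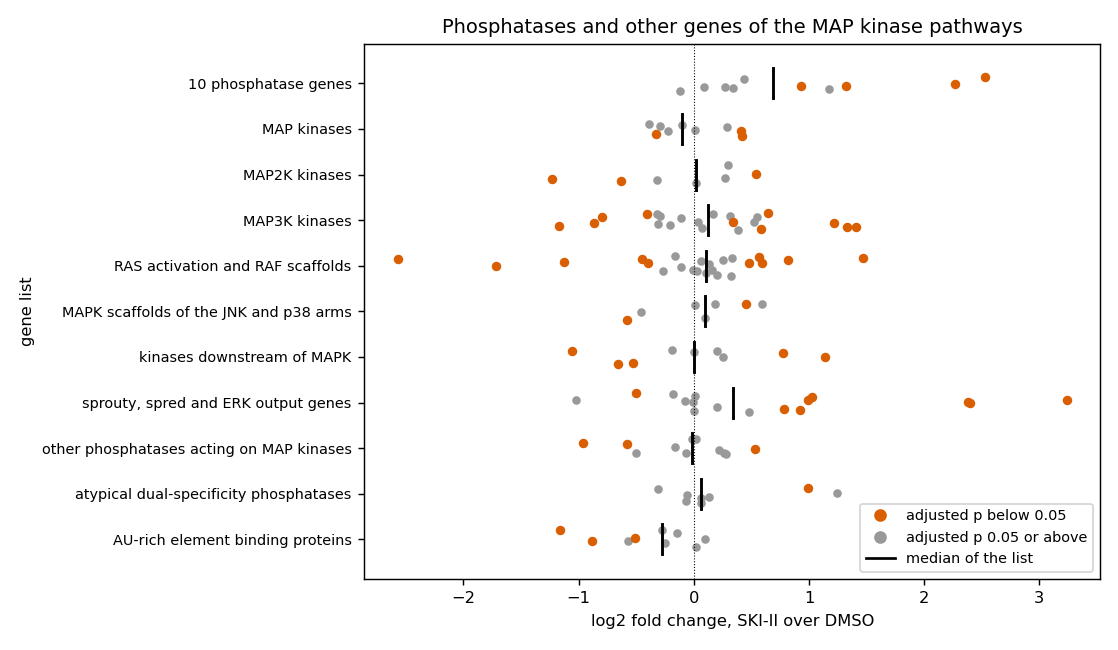
Log2 fold change, SKI-II over DMSO, of the 10 phosphatase genes and of the tested genes of 10 lists of the MAP kinase pathways (one point per gene, orange where the adjusted p is below 0.05, a black line at the median of the list). The median of the phosphatase genes is 0.69, and those of the other lists lie between -0.28 and 0.34.

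Over the 6 libraries, the pattern of Dusp1 was most like those of Stac2, Asl and Abcf3, with Pearson correlations of log2 normalized counts of 0.997, 0.996 and 0.995. For Dusp5 the nearest genes were Ccdc97, Utrn and Fam8a1 (0.9995, 0.9993 and 0.9987), and for Dusp6 they were Reep5, Esd and Mtfr1 (0.9997, 0.9977 and 0.9966). These are descriptions over libraries that fall into 2 groups. Among 9582 genes with at least 100 normalized counts on average, 973 had a correlation of 0.9 or more with Dusp1, 1195 with Dusp5 and 866 with Dusp6. The nearest genes changed less than the phosphatases they resembled, with log2 fold changes of 0.57 to 0.68 for those of Dusp1, 0.71 to 1.14 for those of Dusp5 and 0.55 to 1.05 for those of Dusp6.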

How the data were processed

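The authors prepared libraries from oligo(dT)-enriched RNA and deposited raw counts per Ensembl gene. The submitters' processing notes name Trimmomatic 0.36, STAR 2.5.2b, featureCounts, Subread 1.5.2 and DESeq2. The genome build, annotation release and strandedness are stated by no source used here. All 6 columns were used. Symbols, positions and exon lengths came from GENCODE M21 (GRCm38), and promoter windows from RefSeq (GRCm38.p6).

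Genes were filtered with edgeR's filter on expression by condition (minimum count 10, minimum total 15), scaled by TMM and tested with edgeR 4.0.16 (R 4.3.3). Standard errors used the fitted weights and the moderated dispersion. Alternatives were DESeq2 1.42.0, limma-voom (limma 3.58.1), other scalings and filters, each library left out, the replicate number as a block, other gene lengths and another pseudocount (1 in place of 0.5 normalized counts, for ratios). Programs were tested on simulated counts. Replicate pairs differed by more than sampling noise (chi-square per degree of freedom 15.4 to 58.1). Depth was 12495957 to 20050677 counts per library, and the scarcest members, Dusp2 and Dusp10, had 21 to 73.

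The members and lists were chosen with earlier results of these data known. Named genes are all members, the called gene with the largest change in each direction in each list, and the 3 genes nearest in pattern to each of the 3 called members with the largest change. A result that this rule names among the MAP kinases is not reported here.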

Additional observations from a re-analysis of the deposited data

How the results depend on the processing

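The 4 members that rose kept their direction in all 13 other fits, and Dusp1, Dusp5 and Dusp6 also their call. Dusp4 lost it only without SKI-II replicate 1 (log2 fold change 0.76; range over the 6 fits without 1 library, 0.69 to 1.17). Dusp8, not called in the reported fit, was called by limma-voom (1.32), with library size alone (1.19), with no filter (1.17, adjusted p = 4.58e-08) and with the replicate block (1.25), and ranged from 0.77 to 1.66 without 1 library. The no-filter fit gave far smaller adjusted p-values for called members (1.14e-46 for Dusp1) over 22960 genes, and the cause was not tested. Dusp7 turned to 0.03 without DMSO replicate 3 (range -0.23 to 0.03). Without 1 library, members above a log2 fold change of 1 numbered 3 to 5, and list genes called lower numbered 14 (without SKI-II replicate 2) to 21, against 22. Over all genes tested, the fit without SKI-II replicate 2 called 1836 of 12530 lower, against 2413 of 12274 in the reported fit. Same-numbered libraries deviated together with correlations of 0.234, 0.018 and 0.437. With 3 libraries per group, these values cannot decide whether the numbers pair the samples. The replicate block called 5 members higher against 4, and 30 list genes higher and 28 lower against 26 and 22. Over all 12274 genes tested, the block called 2765 higher and 2819 lower, against 2255 and 2413 without it. DMSO replicate 1 correlated slightly better with SKI-II replicate 2 (0.274) than with SKI-II replicate 1 (0.234). Depth limits Dusp2 and Dusp10 most.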
